A study of Gallus gallus with 8 samples.

Results

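Epiblast of the chick area opaca that had been in contact with a grafted Hensen's node for 5 hours was set against the neural plate, to measure how far this tissue still stood from neural plate. The comparison uses 2 of the 8 libraries of the series and the genes at 5 CPM or more (CPM, counts scaled to a library total of 1000000) in either of them, 9838 of 17329 genes. In the grafted group the node was placed into the area opaca of embryos at Hamburger and Hamilton stage 4 (HH4), and the epiblast touching it was taken 5 hours later. The neural plate was dissected from embryos at HH6/7 that carried no graft. Other libraries serve only for values side by side. These are the area opaca of the opposite, ungrafted side of the same HH4 hosts, the central and the anterior epiblast before the primitive streak forms (pre-streak, EGKXII/XIII), and the anterior and posterior preplacodal region and the non-neural head ectoderm at HH6/7. The grafted, ungrafted, pre-streak and neural plate libraries came from 1 laboratory, the preplacodal and non-neural ones from another. The sources used here do not give the strain, the number of embryos per library or whether graft cells were left in the sample. Each group has 1 library, so that no difference below has a replicate check.

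Hensen's node is the organiser of the bird embryo, a group of cells at the tip of the primitive streak that can turn ectoderm which would not form nervous system towards neural fate. The area opaca is the extraembryonic rim of the disc and normally contributes nothing to the nervous system. In the chick the response to a node graft runs in steps. Genes such as ENS-1 (also called ERNI), SOX3 and OTX2 are known to come on within hours, and the definitive neural plate marker SOX2 follows only after longer contact. FGF signals are known to start this response, and loss of BMP and WNT signalling to be needed for later steps. The neural plate at HH6/7 is already patterned along its length and begins to fold.

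The grafted library held 13053810 counts and the neural plate library 109869453, so that 3 counts, the floor used where a library had no count, correspond to 0.2298 CPM in grafted area opaca and 0.0273 CPM in neural plate. A gene was called higher or lower where the CPM ratio of grafted area opaca over neural plate reached 2 in either direction and the higher library had at least 5 CPM. Values in square brackets are exact 95% Clopper-Pearson intervals of that ratio and cover counting error only. By this rule 720 genes (7.32%) were higher and 1581 (16.1%) lower in grafted area opaca, together 23.4% of all measured genes, and 7537 passed neither rule. The median log2 ratio of all genes was -0.09, and 5809 genes (59.0%) lay within 1.5-fold of each other. At least 10-fold lower were 222 genes and at least 10-fold higher 131. With the interval bound itself required to reach 2, 1189 genes were lower and 592 higher. Between ratios of 2 and 2.2 lay 125 of the higher and 229 of the lower genes, and between 1.8 and 2 a further 189 and 312 that passed no rule. At the minimum level CLYBL (0.690 CPM grafted, 5.01 CPM neural plate) lay just inside and KCNN2 (1.23 CPM grafted, 5.00 CPM neural plate) just outside, both chosen after their values were seen. In brackets, grafted and ungrafted stand for grafted and ungrafted area opaca. Scaling with TMM factors or DESeq2 size factors would raise all log2 ratios by 0.10 or 0.13, so a ratio that near to 0 has no direction here. No list member named as higher or lower passed the rule in the opposite direction under any alternative tried, which most of these could hardly produce.

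Defining markers were read first. Of 6 neural plate markers, SOX2, ZIC2, LHX5 and RAX were present in the neural plate library and summed to 18.5 CPM in grafted area opaca, against 385 CPM in neural plate and 0.206 CPM in ungrafted area opaca. SOX1 and SIX3, both RefSeq rows, had no count in any of the 8 libraries, neural plate included. For such rows, a transcript absent from the tissue and reads that were not counted cannot be told apart. The 5 markers of area opaca and non-neural ectoderm (GATA2, GATA3, GRHL3, KRT18 and TFAP2A) summed to 133 CPM in grafted area opaca, against 49.97 CPM in neural plate and 889 CPM in ungrafted area opaca. Most of the grafted sum was KRT18 (85.2 CPM), and GATA2 and GRHL3 also stood above neural plate. TFAP2A (22.7 CPM grafted, 39.5 CPM neural plate) stood below it. GATA3 (0.766 CPM grafted, 1.38 CPM neural plate, 1.81-fold lower [0.956, 3.84]) had 10 grafted counts, and its interval includes no difference. Of the 7 markers of the node and its axial derivatives, 5 reached 1 CPM in grafted area opaca and 6 in neural plate, with sums of 64.9 CPM in grafted area opaca against 42.9 CPM in neural plate. Most of the grafted sum was GNOT1 (26.2 CPM grafted, 9.55 CPM neural plate) and T (24.8 CPM grafted, 8.61 CPM neural plate). FOXA2 (4.67 CPM grafted, 1.28 CPM neural plate) also stood above neural plate. The other markers stood below it. The BMP antagonist CHRD stood at 8.04 CPM in grafted area opaca, against 19.4 CPM in neural plate, with no count on the ungrafted side. SHH, the signal of axial midline cells, had no count in grafted area opaca, against 0.355 CPM in neural plate. GSC (1.07 CPM grafted, 2.48 CPM neural plate) and NOG (0.0766 CPM grafted, 1.21 CPM neural plate) were low in both. Mesoderm markers (5 of 6 matched) summed to 13.4 CPM in grafted area opaca against 6.07 CPM in neural plate, most of the grafted sum being TBX6. Blood and endothelial markers (4 of 6 matched) summed to 3.83 CPM in grafted area opaca against 4.72 CPM in neural plate, with TAL1 and CDH5 at 0 in grafted area opaca, and endoderm markers to 8.58 CPM in grafted area opaca against 38.9 CPM in neural plate. The part of cells other than ectoderm in the results was not tested. In bulk tissue, fewer cells with a transcript and less transcript per cell cannot be told apart.

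**Figure D1:**
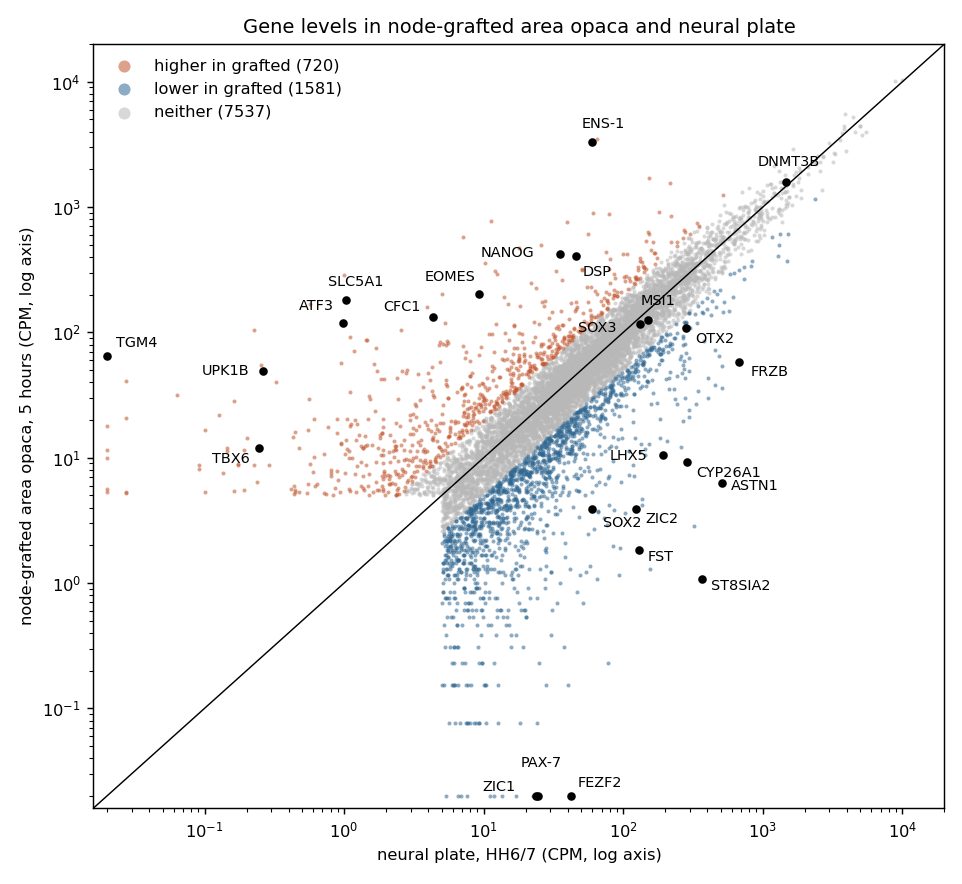
CPM of the 9838 measured genes in node-grafted area opaca (vertical, log axis) against neural plate (horizontal, log axis), 1 point per gene, with values under 0.02 CPM, zeros included, drawn at 0.02. Most genes lie along the diagonal of equal levels, ST8SIA2, FST, ZIC2 and SOX2 lie far below it, SOX3, MSI1 and DNMT3B near it, and ENS-1, NANOG, EOMES and SLC5A1 far above it.

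Among the genes furthest below neural plate were several transcription factors known from the early brain. Ranked by the interval bound nearest 1, the lowest was ST8SIA2 (ENSGALG00000006882), which builds the polysialic acid carried by the adhesion molecule NCAM. It stood at 1.07 CPM in grafted area opaca, against 367 CPM in neural plate (343-fold lower [204, 627]), with 0.823 CPM on the ungrafted side. FEZF2, a zinc finger factor of the early forebrain, had no count in grafted area opaca, against 42.1 CPM in neural plate, and was at least 183-fold lower with the grafted library set at its floor of 3 counts. The paired box factor PAX-7 of dorsal neural tissue and neural crest (24.6 CPM in neural plate, at least 107-fold lower), the zinc finger factor ZIC1 (23.9 CPM in neural plate, at least 104-fold lower) and the brain factor RFX4 (13.5 CPM in neural plate, at least 58.8-fold lower) were also absent from the grafted counts. So was PPP1R1B, a phosphatase inhibitor of neurons, at 17.01 CPM in neural plate. BRINP2, a member of a family known from developing neurons, had 3 grafted counts and stood at 0.2298 CPM in grafted area opaca, against 78.3 CPM in neural plate (341-fold lower [117, 1653]). ASTN1, an adhesion protein that young neurons of the mouse use to migrate along glia, stood at 6.28 CPM in grafted area opaca, against 509 CPM in neural plate (81.1-fold lower [65.3, 102]). SHISA2, whose Xenopus relative Shisa holds back FGF and WNT receptors inside the cell, stood at 2.83 CPM in grafted area opaca, against 322 CPM in neural plate (114-fold lower [82.4, 161]).

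The others of the lowest 15 were the LIM-only cofactor LMO1 (1.302 CPM grafted, 156 CPM neural plate), the receptor phosphatase PTPRT (0.153 CPM grafted, 40.3 CPM neural plate), the formin FMN2 (0.0766 CPM grafted, 24.1 CPM neural plate) and the repressor ZEB2 (1.15 CPM grafted, 93.7 CPM neural plate, 81.6-fold lower [49.4, 146]). The homeobox genes NKX-6.2 (0.153 CPM grafted, 27.7 CPM neural plate) and DMBX1 (0.306 CPM grafted, 37.5 CPM neural plate) were among them too. Across these 15 genes the grafted library ranged from 0 to 6.28 CPM, the neural plate library from 13.5 to 509 CPM and the ungrafted library from 0 to 3.29 CPM. The ranges of grafted area opaca and neural plate did not overlap, which the ranking itself fixes.

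The genes furthest above neural plate were led by transporters, enzymes and surface proteins. TGM4 (ENSGALG00000011888), a transglutaminase, stood at 64.5 CPM in grafted area opaca, against 0.009102 CPM in neural plate, with 274 CPM on the ungrafted side. Its ratio, 7087-fold higher [1268, 280240.0], rests on 1 neural plate count. The glutamate transporter SLC1A3 stood at 104 CPM in grafted area opaca, against 0.228 CPM in neural plate (456-fold higher [308, 707]), with 737 CPM on the ungrafted side. The nucleoside transporter SLC28A3 (168 CPM grafted, 0.573 CPM neural plate, 825 CPM ungrafted) and the sodium-glucose transporter SLC5A1 (179.9 CPM grafted, 1.04 CPM neural plate, 1898 CPM ungrafted) were 294-fold higher [228, 383] and 173-fold higher [144, 211]. UPK1B, a uroplakin of stratified and urinary epithelia, stood at 49.2 CPM in grafted area opaca, against 0.264 CPM in neural plate (186-fold higher [128, 280.5]), with 197 CPM on the ungrafted side. AGR2, a protein folding enzyme of mucous epithelia (41.1 CPM grafted, 0.0273 CPM neural plate, 92.98 CPM ungrafted), the cation pump ATP13A4 (31.7 CPM grafted, 0.0637 CPM neural plate, 169 CPM ungrafted) and TC2N (16.8 CPM grafted, 0.1001 CPM neural plate, 56.4 CPM ungrafted) belong here too. These 8 genes stood higher on the ungrafted than on the grafted side, and lowest in neural plate.

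The other 7 of the highest 15 stood lower on the ungrafted than on the grafted side. VSTM2A, an immunoglobulin domain protein, stood at 17.8 CPM in grafted area opaca with no count in neural plate, at least 654-fold higher with neural plate set at its floor, and at 3.64 CPM in ungrafted area opaca. EYS, a secreted protein known from photoreceptors, stood at 11.6 CPM in grafted area opaca, against 0.0182 CPM in neural plate, with 0.137 CPM on the ungrafted side. GHRH, the growth hormone releasing hormone, stood at 54.6 CPM in grafted area opaca, against 0.255 CPM in neural plate, with 7.55 CPM on the ungrafted side. ATF3, a transcription factor of the stress response, stood at 119 CPM in grafted area opaca, against 0.974 CPM in neural plate (122-fold higher [100.4, 150.1]), with 38.5 CPM on the ungrafted side. BMPER, a secreted regulator that binds BMPs, stood at 40.1 CPM in grafted area opaca, against 0.328 CPM in neural plate (122-fold higher [87.2, 177]), with 37.3 CPM on the ungrafted side. The ectonucleotidase ENPP3 was the most abundant in counts, at 582 CPM in grafted area opaca, against 7.06 CPM in neural plate (82.4-fold higher [76.5, 88.8]), with 397 CPM on the ungrafted side. The importin KPNA7 (28.4 CPM grafted, 0.164 CPM neural plate, 23.7 CPM ungrafted) completes this group.

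Neural plate genes were mostly far below their neural plate level after 5 hours. Of the neural plate list, 18 of 29 matched members were measured, 0 higher, 16 lower and 2 neither (median log2 ratio -3.88), beside -0.09 for all genes. The shares of all measured genes were 7.32% higher and 16.1% lower. SOX2, the HMG box factor that marks neural plate, stood at 3.91 CPM in grafted area opaca, against 59.98 CPM in neural plate (15.4-fold lower [11.7, 20.6]), with no count on the ungrafted side. ZIC2, a zinc finger factor needed to close the mouse neural tube, stood at 3.91 CPM in grafted area opaca, against 124 CPM in neural plate (31.6-fold lower [24.04, 42.5]), with no count on the ungrafted side. LHX5, a LIM homeobox factor of the anterior neural plate, stood at 10.6 CPM in grafted area opaca, against 194 CPM in neural plate (18.3-fold lower [15.5, 21.8]), with no count on the ungrafted side. The anterior homeobox repressor HESX1 (6.05 CPM grafted, 63.96 CPM neural plate, 10.6-fold lower [8.47, 13.4]) was lower by less. These 4 genes were detected in grafted area opaca and stood between 3.91 and 10.6 CPM there, whereas FEZF2 and ZIC1 had no count and OTX1 and RAX 1 count each, with 12.7 and 8.01 CPM in neural plate.

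Members of the list that are not transcription factors had a median ratio nearer to neural plate, though the ranges of both kinds overlapped. The neural cadherin CDH2 stood at 20.5 CPM in grafted area opaca, against 184 CPM in neural plate (8.96-fold lower [7.94, 10.1]), with 12.5 CPM on the ungrafted side. The intermediate filament gene NES (65.04 CPM grafted, 258 CPM neural plate, 3.96-fold lower [3.702, 4.25]), the adhesion molecule NCAM1 (50.02 CPM grafted, 171 CPM neural plate, 3.42-fold lower [3.16, 3.703]) and the fatty acid binding protein FABP7 (31.6 CPM grafted, 79.96 CPM neural plate, 2.53-fold lower [2.29, 2.796]) were lower as well. The secreted WNT inhibitor SFRP2 stood at 36.2 CPM in grafted area opaca, against 511 CPM in neural plate (14.1-fold lower [12.9, 15.5]). The members that passed neither rule were the RNA binding protein MSI1 (127 CPM grafted, 150.1 CPM neural plate, 7.48 CPM ungrafted) and the zinc finger factor SALL1 (245 CPM grafted, 287 CPM neural plate, 176 CPM ungrafted). The median log2 ratio was -4.69 over the 12 measured transcription factors and -1.88 over the 6 other members. A member that reached 5 CPM only in neural plate was measured through that level, so these counts describe the members and support nothing further.

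The early response list held genes on both sides of neural plate, to be read beside 7.32% higher and 16.1% lower of all measured genes. Of this list, 27 of 29 matched members were measured, 8 higher, 8 lower and 11 neither (median log2 ratio 0.07). Its median level was 108 CPM in grafted area opaca, 117 CPM in neural plate and 20.2 CPM in ungrafted area opaca. The list was chosen with earlier results of these data known. STMN2 was measured through its grafted level only, and TOX3 and ZEB2 through their neural plate level only. Counts and medians of this list therefore describe the members and support nothing further. Of its members that the node is known to switch on early, SOX3, a relative of SOX2, stood at 116 CPM in grafted area opaca, against 131 CPM in neural plate, with 41.6 CPM on the ungrafted side and passed neither rule. BLIMP-1, the zinc finger repressor also called PRDM1, stood at 40.5 CPM in grafted area opaca, against 40.7 CPM in neural plate, with 3.09 CPM on the ungrafted side. The growth regulator MYCN stood at 77.8 CPM in grafted area opaca, against 117 CPM in neural plate, with 12.2 CPM on the ungrafted side. Neither gene passed a rule. The same holds for the DNA methyltransferases DNMT3B (1591 CPM grafted, 1475 CPM neural plate, 605 CPM ungrafted) and DNMT3A (884 CPM grafted, 589 CPM neural plate) and the stem cell factor SALL4 (832 CPM grafted, 794 CPM neural plate). It holds as well for the neurotrophin receptor NGFR (20.3 CPM grafted, 13.5 CPM neural plate) and GMNN, which blocks DNA re-replication (125 CPM grafted, 103 CPM neural plate). A gene that passes neither rule may still differ by up to 2-fold.

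Early response genes above neural plate were led by ENS-1, derived from an endogenous retrovirus, at 3275 CPM in grafted area opaca, against 59.8 CPM in neural plate (54.8-fold higher [53.4, 56.2]), with 141 CPM on the ungrafted side. ENS-1 belongs to a repeated family, another row had like counts, and the sharing of reads between copies was not tested. The metalloprotease ASTL stood at 469 CPM in grafted area opaca, against 17.8 CPM in neural plate (26.3-fold higher [24.99, 27.7]), with 152 CPM on the ungrafted side. The microtubule regulator STMN2 reached 18.6 CPM in grafted area opaca, against 1.25 CPM in neural plate, with no count on the ungrafted side. The carbonic anhydrase CA2 stood at 245 CPM in grafted area opaca, against 21.7 CPM in neural plate, with 6.31 CPM on the ungrafted side. Transcriptional regulators above neural plate were ZNF462 (3.95-fold higher [3.84, 4.05]), ETV4 (3.27-fold higher [2.98, 3.58]), TRIM24 (2.84-fold higher [2.75, 2.93]) and ETV1 (2.73-fold higher [2.52, 2.95]). Early response genes below neural plate included OTX2, a homeobox factor of epiblast and anterior brain, at 108 CPM in grafted area opaca, against 281 CPM in neural plate (2.61-fold lower [2.48, 2.76]), with 3.02 CPM on the ungrafted side. The axonal adhesion molecule CNTN2 stood at 159.6 CPM in grafted area opaca, against 459 CPM in neural plate (2.88-fold lower [2.75, 3.01]), with 0.0686 CPM on the ungrafted side. The retinoic acid degrading enzymes CYP26A1 (9.19 CPM grafted, 287 CPM neural plate, 0.206 CPM ungrafted) and CYP26C1 (12.2 CPM grafted, 258 CPM neural plate, no count ungrafted) were 31.2-fold lower [26.1, 37.6] and 21.2-fold lower [18.1, 24.9]. TOX3 (0.536 CPM grafted, 9.84 CPM neural plate) and ETV5 (57.1 CPM grafted, 138 CPM neural plate) were lower too.

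Levels in the other libraries place the main members. SOX2 stood at 15.5 CPM in the anterior and 14.9 CPM in the posterior preplacodal region, 1.09 CPM in the anterior and 0.1398 CPM in the central pre-streak epiblast and 0.153 CPM in non-neural ectoderm. Its grafted level of 3.91 CPM lay above the pre-streak and non-neural libraries and below the preplacodal ones. OTX2, at 108 CPM in grafted area opaca, stood at 112 CPM in the anterior and 18.2 CPM in the central pre-streak epiblast, 283 CPM in the anterior and 222 CPM in the posterior preplacodal region and 14.4 CPM in non-neural ectoderm. SOX3, at 116 CPM in grafted area opaca, was highest in the anterior pre-streak epiblast (222 CPM). LHX5 stood at 10.6 CPM in grafted area opaca, 10.9 CPM in the anterior pre-streak epiblast and 196 and 161 CPM in the preplacodal libraries. With 1 library per tissue, neighbouring values in these orders have no spread to be set against.

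**Figure D2:**
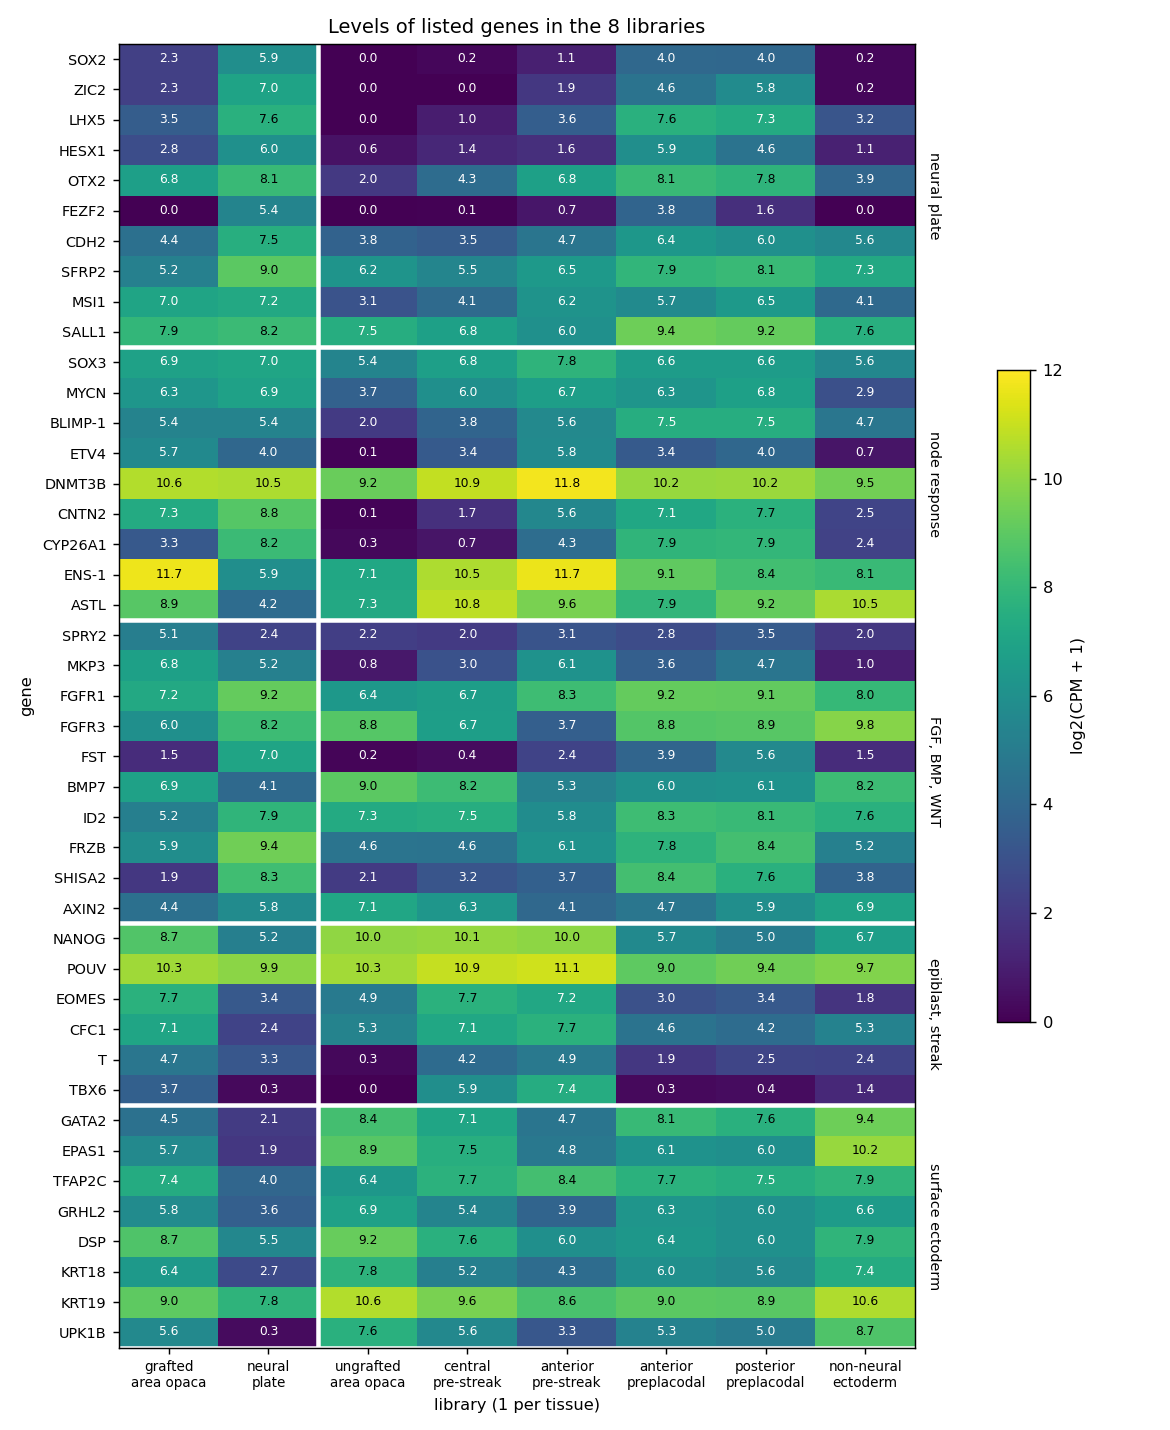
Level of 43 listed genes (vertical, in 5 blocks) in the 8 libraries (horizontal), as log2(CPM + 1) printed in each cell and shown by colour, with the grafted area opaca and neural plate at the left. SOX2 reads 2.3 in grafted area opaca and 5.9 in neural plate, SOX3 6.9 and 7.0, and KRT18 6.4 and 2.7.

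No measured gene of the forebrain, midbrain or hindbrain lists was above its neural plate level by the rule, and the forebrain list had the lowest median of all lists. Over all measured genes 16.1% were lower. A member that reached 5 CPM only in neural plate was measured through that level, as FEZF2, OTX1, RAX, DMBX1 and PAX-6 were. These counts and medians therefore describe the members and support nothing further. With a minimum of 1 CPM the forebrain median was -4.40, with 9 members measured, all lower. Of the forebrain and eye field list, 7 of 18 matched members were measured, 0 higher, 7 lower and 0 neither (median log2 ratio -6.71). This median is the ratio of RAX, which rests on 1 grafted count. It was -5.67 without RefSeq rows and -5.17 with a minimum of 20 CPM. The median level of the list was 0.306 CPM in grafted area opaca, 37.5 CPM in neural plate and 0.206 CPM in ungrafted area opaca. Besides FEZF2, DMBX1, OTX1, HESX1 and OTX2 they were the eye factors RAX (0.0766 CPM grafted, 8.01 CPM neural plate, 105-fold lower [18.7, 4134], on 1 grafted count) and PAX-6 (0.306 CPM grafted, 6.45 CPM neural plate, 21.1-fold lower [8.19, 77.5]). OTX2 was thus the nearest to neural plate of the measured members. Of the midbrain and hindbrain list, 6 of 16 matched members were measured, 0 higher, 3 lower and 3 neither (median log2 ratio -1.93). LMX1B, a LIM homeobox factor of the isthmus, stood at 0.689 CPM in grafted area opaca, against 51.7 CPM in neural plate. The homeobox gene IRX2 stood at 3.37 CPM in grafted area opaca, against 48.5 CPM in neural plate. GBX2, which marks the hindbrain side of the midbrain boundary, had 1.92 CPM in grafted area opaca, against 14.2 CPM in neural plate. The homeobox genes MEIS2 (21.8 CPM grafted, 42.7 CPM neural plate, 0.823 CPM ungrafted), MEIS1 (5.21 CPM grafted, 8.04 CPM neural plate) and IRX1 (4.37 CPM grafted, 6.83 CPM neural plate) passed neither rule.

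Caudal genes differed in both directions, to be read beside 7.32% higher and 16.1% lower of all measured genes. TBX6, WNT5A and WNT5B were measured through their grafted level only, and SP5 through its neural plate level only. Of the caudal list, 6 of 20 matched members were measured, 4 higher, 2 lower and 0 neither (median log2 ratio 1.55). The T-box genes T (24.8 CPM grafted, 8.61 CPM neural plate, 2.88-fold higher [2.53, 3.27], 0.206 CPM ungrafted) and TBX6 (11.9 CPM grafted, 0.246 CPM neural plate, 48.3-fold higher [31.96, 75.7], no count ungrafted), which mark the streak and the mesoderm it makes, were higher. The ligands WNT5A (5.44 CPM grafted, 1.11 CPM neural plate) and WNT5B (11.2 CPM grafted, 3.78 CPM neural plate) were higher too. SP5, a WNT target (1.23 CPM grafted, 54.0 CPM neural plate, 44.1-fold lower [27.1, 77.1]), and CYP26A1 were lower. The direction of this median rests on 6 genes, and with a minimum of 20 CPM it was -4.96.

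Genes of neurons follow, to be read beside 7.32% higher and 16.1% lower of all measured genes. Of the neuronal list, 17 of 38 matched members were measured, 2 higher, 11 lower and 4 neither (median log2 ratio -1.46). A member that reached 5 CPM only in neural plate was measured through that level, DCX, MAPT, GAP43, RTN1 and EBF1 among them. These counts therefore describe the members and support nothing further. The microtubule proteins TUBB3 (27.1 CPM grafted, 174 CPM neural plate, 6.41-fold lower [5.77, 7.14], 13.9 CPM ungrafted), DCX (2.07 CPM grafted, 12.7 CPM neural plate), MAP2 (37.3 CPM grafted, 145 CPM neural plate) and MAPT (0.613 CPM grafted, 7.59 CPM neural plate) were lower in grafted area opaca. GAP43 of growth cones (0.2298 CPM grafted, 6.94 CPM neural plate) and RTN1 (0.613 CPM grafted, 18.5 CPM neural plate) were lower as well. STMN2, given above, and GDAP1 (6.28 CPM grafted, 2.203 CPM neural plate) were higher. DPYSL3 (257 CPM grafted, 319 CPM neural plate, 67.9 CPM ungrafted), NEFM (25.4 CPM grafted, 19.9 CPM neural plate) and SYT1 (4.44 CPM grafted, 8.27 CPM neural plate) passed neither rule. Of 15 proneural and neuronal transcription factors matched, 1 was measured, EBF1 (1.99 CPM grafted, 5.32 CPM neural plate).

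Genes of FGF feedback and FGF targets are to be read beside 7.32% higher and 16.1% lower of all measured genes. Their share lower was near that of all genes. SPRY2, EGR1 and FOS reached 5 CPM only in grafted area opaca and were measured through that level. Of the FGF feedback and target list, 18 of 21 matched members were measured, 7 higher, 3 lower and 8 neither (median log2 ratio 0.87). SPRY2, a feedback inhibitor of receptor tyrosine kinases, stood at 34.01 CPM in grafted area opaca, against 4.26 CPM in neural plate (7.99-fold higher [6.997, 9.11]), with 3.64 CPM on the ungrafted side. MKP3 (DUSP6), the ERK phosphatase that FGF induces, stood at 114 CPM in grafted area opaca, against 36.5 CPM in neural plate (3.12-fold higher [2.93, 3.31]), with 0.686 CPM on the ungrafted side. IL17RD, a membrane inhibitor of FGF signalling, stood at 159.7 CPM in grafted area opaca, against 46.8 CPM in neural plate (3.41-fold higher [3.24, 3.59]), with 15.03 CPM on the ungrafted side. The immediate early genes EGR1 (29.4 CPM grafted, 0.564 CPM neural plate, 52.1-fold higher [39.8, 69.3], 28.1 CPM ungrafted) and FOS (7.35 CPM grafted, 1.201 CPM neural plate, 7.89 CPM ungrafted) were higher than in neural plate and stood at similar levels on the ungrafted side. DUSP5, DUSP4, SPRED1, SPRED2 and SPRY1 had grafted to neural plate log2 ratios from 0.39 to 0.90 and passed neither rule. DUSP14 (44.5 CPM grafted, 139.8 CPM neural plate), FLRT3 (14.3 CPM grafted, 39.1 CPM neural plate) and ETV5 were lower.

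Of 5 FGF receptors measured, 4 were lower and 1 was higher, beside 16.1% lower and 7.32% higher of all measured genes. FGFRL1 was measured through its neural plate level only. FGFR1 stood at 149 CPM in grafted area opaca, against 569 CPM in neural plate (3.81-fold lower [3.64, 3.99]), with 84.3 CPM on the ungrafted side. FGFR2 stood at 143 CPM in grafted area opaca, against 375 CPM in neural plate (2.63-fold lower [2.51, 2.76]), with 55.03 CPM on the ungrafted side. FGFR3 had 62.8 CPM in grafted area opaca, against 297 CPM in neural plate (4.73-fold lower [4.41, 5.07]), with 449.6 CPM on the ungrafted side. FGFRL1, which lacks the kinase part, was the other lower one (1.15 CPM grafted, 5.54 CPM neural plate), and FGFR4 the higher one (118 CPM grafted, 57.5 CPM neural plate, 87.1 CPM ungrafted). Of 17 FGF ligands matched, 2 reached the minimum level, FGF12 (16.8 CPM grafted, 17.2 CPM neural plate) and FGF13 (6.82 CPM grafted, 11.5 CPM neural plate), and neither passed a rule.

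In the BMP pathway, the ligands BMP7 and BMP2 were above and several targets below their neural plate level. Of the list, 23 of 37 matched members were measured, 5 higher, 6 lower and 12 neither (median log2 ratio -0.29). The shares of all measured genes were 7.32% higher and 16.1% lower. BMP2, GATA2 and BMPER were measured through their grafted level only, and DLX5 and FST through their neural plate level only. BMP7 stood at 115 CPM in grafted area opaca, against 16.4 CPM in neural plate (7.02-fold higher [6.55, 7.52]), with 509 CPM on the ungrafted side, and BMP2 at 5.75 CPM in grafted area opaca, against 0.865 CPM in neural plate (6.64-fold higher [4.84, 9.09]), with 39.4 CPM on the ungrafted side. BMP4 (35.3 CPM grafted, 22.3 CPM neural plate, 42.7 CPM ungrafted) and BMP6 (84.04 CPM grafted, 60.0 CPM neural plate) passed neither rule, and no measured receptor or SMAD protein passed one. Among targets, the helix-loop-helix inhibitors ID2 (35.5 CPM grafted, 231 CPM neural plate, 6.498-fold lower [5.93, 7.14], 159 CPM ungrafted) and ID1 (6.82 CPM grafted, 32.8 CPM neural plate) and the homeobox genes MSX1 (12.4 CPM grafted, 43.1 CPM neural plate, 132 CPM ungrafted) and DLX5 (1.69 CPM grafted, 13.6 CPM neural plate, 25.3 CPM ungrafted) were lower. The GATA factor GATA2 was higher (20.99 CPM grafted, 3.26 CPM neural plate, 6.44-fold higher [5.48, 7.56], 341 CPM ungrafted). Antagonists divided. Follistatin, FST, which binds activins and BMPs, stood at 1.84 CPM in grafted area opaca, against 129 CPM in neural plate (70.1-fold lower [47.1, 109]), with 0.137 CPM on the ungrafted side, and CHRD was 2.42-fold lower [1.99, 2.97], while BMPER, given above, and the decoy receptor BAMBI (18.9 CPM grafted, 5.12 CPM neural plate, 91.5 CPM ungrafted) were higher.

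Nodal pathway genes followed no single direction. Of the list, 8 of 15 matched members were measured, 2 higher, 4 lower and 2 neither (median log2 ratio -0.78). The shares of all measured genes were 7.32% higher and 16.1% lower. CFC1 was measured through its grafted level only and CVG1 through its neural plate level only. The co-receptor CFC1, of the Cripto family, stood at 133 CPM in grafted area opaca, against 4.36 CPM in neural plate (30.5-fold higher [27.6, 33.8]), with 39.7 CPM on the ungrafted side; its counts are like those of the row CFC1B, and these stand for 1 gene. EOMES, a T-box factor downstream of nodal, stood at 202 CPM in grafted area opaca, against 9.27 CPM in neural plate (21.8-fold higher [20.3, 23.5]), with 29.8 CPM on the ungrafted side. The ligand CVG1, chick Vg1, was lower (3.75 CPM grafted, 28.96 CPM neural plate), as were SMAD3 (13.1 CPM grafted, 38.6 CPM neural plate), the receptor ACVR1B (35.1 CPM grafted, 81.1 CPM neural plate) and DACT2 (92.2 CPM grafted, 185 CPM neural plate).

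In the WNT pathway, 4 of 6 measured inhibitors and 3 of 10 measured receptors were below neural plate. Of the WNT list, 30 of 53 matched members were measured, 3 higher, 14 lower and 13 neither (median log2 ratio -0.74). The shares of all measured genes were 7.32% higher and 16.1% lower. SHISA2 and SP5 were measured through their neural plate level only, and WNT5A and WNT5B through their grafted level only. FRZB, a secreted frizzled-related protein, stood at 58.3 CPM in grafted area opaca, against 679 CPM in neural plate (11.7-fold lower [10.9, 12.5]), with 23.3 CPM on the ungrafted side. SFRP2 and SHISA2, given above, and DKK3 (38.3 CPM grafted, 80.96 CPM neural plate) were lower. SFRP1 stood at 272 CPM in grafted area opaca, against 357 CPM in neural plate, with 15.9 CPM on the ungrafted side and passed neither rule. The WNT deacylase NOTUM was higher (36.5 CPM grafted, 16.6 CPM neural plate). The receptors FZD7 (64.5 CPM grafted, 487 CPM neural plate, 7.56-fold lower [7.06, 8.097], 56.3 CPM ungrafted), FZD8 (8.35 CPM grafted, 26.8 CPM neural plate) and FZD1 (15.7 CPM grafted, 48.5 CPM neural plate) were lower, and the other 7 measured receptors passed neither rule. Of 11 targets and effectors 7 were lower and none higher. Among them the feedback gene AXIN2 stood at 20.7 CPM in grafted area opaca, against 53.8 CPM in neural plate, with 134 CPM on the ungrafted side. The TCF factor TCF7L1 stood at 32.3 CPM in grafted area opaca, against 105 CPM in neural plate, with 9.26 CPM on the ungrafted side. SP5, given above, had the lowest ratio. AXIN1, a scaffold of the complex that degrades beta-catenin, was lower as well (35.9 CPM grafted, 132 CPM neural plate).

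Notch, retinoic acid and hedgehog genes were each mixed or lower, to be read beside 7.32% higher and 16.1% lower of all measured genes. A member that reached 5 CPM only in neural plate was measured through that level, GLI1, BOC, NRARP, RXRA and STRA6 among them. These counts therefore describe the members and support nothing further. Of the Notch list, 11 of 18 matched members were measured, 2 higher, 4 lower and 5 neither (median log2 ratio -0.13). The ligands JAG1 (26.7 CPM grafted, 9.37 CPM neural plate, 2.47 CPM ungrafted) and JAG2 (23.5 CPM grafted, 8.39 CPM neural plate, 135 CPM ungrafted) were higher. The receptor NOTCH1 (35.4 CPM grafted, 213 CPM neural plate, 6.02-fold lower [5.49, 6.62]), the fringe enzyme LFNG (9.35 CPM grafted, 84.03 CPM neural plate, 8.99-fold lower [7.52, 10.8]) and the targets HES1 (10.6 CPM grafted, 45.4 CPM neural plate) and NRARP (1.302 CPM grafted, 9.202 CPM neural plate) were lower. Of the retinoic acid list, 12 of 18 matched members were measured, 2 higher, 5 lower and 5 neither (median log2 ratio -0.37). Besides CYP26A1 and CYP26C1, the retinol receptor STRA6 (4.67 CPM grafted, 136 CPM neural plate, 29.1-fold lower [22.6, 38.04]), the carrier CRABP2 (10.6 CPM grafted, 69.7 CPM neural plate) and the nuclear receptor RXRA (4.44 CPM grafted, 20.1 CPM neural plate) were lower. The retinal reductase DHRS3 was higher (39.1 CPM grafted, 7.65 CPM neural plate). Of the hedgehog list, 10 of 15 matched members were measured, 0 higher, 6 lower and 4 neither (median log2 ratio -1.19). The transcription factors GLI1 (0.2298 CPM grafted, 11.9 CPM neural plate, 51.6-fold lower [17.6, 251]), GLI2 (12.9 CPM grafted, 135 CPM neural plate, 5.56 CPM ungrafted) and GLI3 (26.6 CPM grafted, 86.96 CPM neural plate) were lower. The co-receptors BOC (2.45 CPM grafted, 56.1 CPM neural plate) and CDON (42.7 CPM grafted, 111 CPM neural plate, 1.85 CPM ungrafted) were lower, like DISP1, which releases hedgehog ligands (13.9 CPM grafted, 27.8 CPM neural plate). The receptor PTCH1 (31.3 CPM grafted, 37.5 CPM neural plate) passed neither rule.

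Most measured epiblast genes passed neither rule, as did most of all measured genes, so this is no trait of the list. Above neural plate were 5 of 15, beside 7.32% of all measured genes. Lower was 1, beside 16.1% of all. Of the epiblast list, 15 of 21 matched members were measured, 5 higher, 1 lower and 9 neither (median log2 ratio 0.41), and the median level was 176 CPM in grafted area opaca, 55.9 CPM in neural plate and 86.5 CPM in ungrafted area opaca. The pluripotency factor NANOG stood at 425 CPM in grafted area opaca, against 35.3 CPM in neural plate (12.03-fold higher [11.5, 12.5]), with 1044 CPM on the ungrafted side. KLF5 (149 CPM grafted, 35.95 CPM neural plate, 349 CPM ungrafted), the telomerase gene TERT (38.2 CPM grafted, 9.29 CPM neural plate, 4.32 CPM ungrafted), TRIM71 (176 CPM grafted, 55.9 CPM neural plate) and PRDM14 (49.9 CPM grafted, 21.4 CPM neural plate, 7.75 CPM ungrafted) were higher too. POUV, the chick relative of the mammalian OCT4 gene, stood at 1269.5 CPM in grafted area opaca, against 954 CPM in neural plate, with 1271 CPM on the ungrafted side and passed neither rule. The RNA binding proteins LIN28A (195 CPM grafted, 338 CPM neural plate) and LIN28B (403 CPM grafted, 253 CPM neural plate) passed none either. KLF4 was lower (1.76 CPM grafted, 6.03 CPM neural plate).

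Genes of the neural plate border, neural crest and placodes were mixed, and their few measured members are to be read beside 7.32% higher and 16.1% lower of all measured genes. PAX-7, ZIC1, DLX5, PAX3, KLF4, SOX9, SOX5, SNAI2, SST and DACH2 were measured through their neural plate level only. CXCL14 and EYA2 were measured through their grafted level only. Counts and medians of these lists therefore describe the members and support nothing further. Of the border list, 12 of 17 matched members were measured, 1 higher, 7 lower and 4 neither (median log2 ratio -1.78). PAX-7 and ZIC1 had no grafted count, and MSX1 and DLX5, given above, were lower. The paired box gene PAX3 stood at 3.29 CPM in grafted area opaca, against 13.03 CPM in neural plate. TFAP2C, an AP-2 factor of surface ectoderm and border, stood at 167 CPM in grafted area opaca, against 14.8 CPM in neural plate (11.3-fold higher [10.6, 12.02]), with 81.3 CPM on the ungrafted side. TFAP2A (22.7 CPM grafted, 39.5 CPM neural plate, 90.3 CPM ungrafted) and BLIMP-1 passed neither rule. Of the neural crest list, 8 of 14 matched members were measured, 2 higher, 5 lower and 1 neither (median log2 ratio -1.93). With a minimum of 20 CPM this median turned to 0.75, with 2 members higher and 2 lower. SOX9 (0.536 CPM grafted, 20.2 CPM neural plate, 37.7-fold lower [18.3, 93.96]), SOX5 (0.536 CPM grafted, 12.4 CPM neural plate) and SNAI2 (3.45 CPM grafted, 12.7 CPM neural plate) were lower, and SNAI1 (33.6 CPM grafted, 6.43 CPM neural plate, 4.73 CPM ungrafted) and ETS1 (26.6 CPM grafted, 10.8 CPM neural plate) higher. Of the preplacodal list, 12 of 22 matched members were measured, 3 higher, 5 lower and 4 neither (median log2 ratio -0.54). The chemokine CXCL14 stood at 86.2 CPM in grafted area opaca, against 1.43 CPM in neural plate (60.3-fold higher [50.99, 71.7]), with 30.4 CPM on the ungrafted side, and HOMER2 (58.7 CPM grafted, 17.9 CPM neural plate) and EYA2 (8.66 CPM grafted, 4.105 CPM neural plate) were higher. The neuropeptide SST (0.4596 CPM grafted, 14.5 CPM neural plate, 31.5-fold lower [14.4, 85.9]), DACH1 (11.5 CPM grafted, 42.96 CPM neural plate) and DACH2 (4.52 CPM grafted, 17.3 CPM neural plate) were lower, and SIX4, a homeobox partner of the EYA proteins, passed neither rule (16.8 CPM grafted, 20.5 CPM neural plate).

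Of the genes of surface and extraembryonic ectoderm, 18 of 33 measured were above their neural plate level by the rule, beside 7.32% of all measured genes. A member that reached 5 CPM only in grafted area opaca was measured through that level, VGLL1, VGLL2, LAMB3 and PKP1 among them. These counts therefore describe the members and support nothing further. Of the non-neural ectoderm list, 33 of 57 matched members were measured, 18 higher, 4 lower and 11 neither (median log2 ratio 1.26), and the median level was 34.3 CPM in grafted area opaca, 11.9 CPM in neural plate and 90.3 CPM in ungrafted area opaca. Among transcription factors, EPAS1 (49.9 CPM grafted, 2.84 CPM neural plate, 17.6-fold higher [15.3, 20.2], 467 CPM ungrafted), GRHL2, which holds the epithelial state (54.3 CPM grafted, 11.4 CPM neural plate, 4.77-fold higher [4.34, 5.23], 116 CPM ungrafted), and the TEAD cofactors VGLL1 (9.88 CPM grafted, no count in neural plate, at least 362-fold higher) and VGLL2 (8.73 CPM grafted, 0.09102 CPM neural plate) were higher. Among structural genes, the desmosome proteins DSP (408 CPM grafted, 45.6 CPM neural plate, 8.94-fold higher [8.604, 9.298], 598 CPM ungrafted), PKP1 (92.3 CPM grafted, 1.11 CPM neural plate, 83.1-fold higher [68.96, 101], 277 CPM ungrafted) and DSG2 (33.02 CPM grafted, 15.2 CPM neural plate) were higher. The keratins KRT18 (85.2 CPM grafted, 5.45 CPM neural plate, 15.6-fold higher [14.1, 17.3], 216 CPM ungrafted) and KRT19 (526 CPM grafted, 220.3 CPM neural plate, 2.39-fold higher [2.32, 2.45], 1580.2 CPM ungrafted) and the laminin chain LAMB3 (5.52 CPM grafted, 0.446 CPM neural plate) were higher. The epithelial cadherin CDH1 (76.5 CPM grafted, 79.7 CPM neural plate, 107 CPM ungrafted), EPCAM (1005 CPM grafted, 721 CPM neural plate, 744 CPM ungrafted), CLDN1 (1581 CPM grafted, 1375 CPM neural plate) and KRT8 (305 CPM grafted, 162 CPM neural plate) passed neither rule. TP63, the master factor of stratified epithelium (0.996 CPM grafted, 5.08 CPM neural plate), and the integrins ITGA6 (93.1 CPM grafted, 269 CPM neural plate) and ITGB4 (14.1 CPM grafted, 29.1 CPM neural plate) were lower. GRHL3, one of the markers above, stood at 3.60 CPM in grafted area opaca, against 0.4005 CPM in neural plate, with 240.4 CPM on the ungrafted side, under the minimum level of the rule.

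Of 5 measured streak and mesoderm transcription factors, 4 were higher and 1 lower in grafted area opaca, and both other measured members of that list were lower. Counts in this paragraph are to be read beside 7.32% higher and 16.1% lower of all measured genes. TBX6, RBP4 and HBE were measured through their grafted level only, and SNAI2 and FST through their neural plate level only. The counts therefore describe the members and support nothing further. Of the primitive streak and mesoderm list, 7 of 36 matched members were measured, 4 higher, 3 lower and 0 neither (median log2 ratio 1.53). The direction of this median turned with a minimum of 1 CPM, and with totals that leave out ribosomal, mitochondrial and the 50 most abundant genes (-1.89 and -0.19). TBX6, EOMES, SNAI1 and T were the higher factors and SNAI2 the lower one, as given above. COL1A2, a collagen chain of mesenchyme, stood at 53.9 CPM in grafted area opaca, against 513 CPM in neural plate (9.53-fold lower [8.84, 10.3]), with 1.44 CPM on the ungrafted side, and the mesenchymal cadherin CDH11 at 43.5 CPM in grafted area opaca, against 402 CPM in neural plate (9.25-fold lower [8.51, 10.1]), with 4.94 CPM on the ungrafted side. Of the node and axial mesoderm list, 7 of 19 matched members were measured, 2 higher, 5 lower and 0 neither (median log2 ratio -1.39). GNOT1, the chick NOTO-type homeobox gene of the node, stood at 26.2 CPM in grafted area opaca, against 9.55 CPM in neural plate (2.74-fold higher [2.42, 3.103]), with 4.803 CPM on the ungrafted side. In contrast, COL2A1, the collagen of notochord and cartilage (24.1 CPM grafted, 296 CPM neural plate, 12.3-fold lower [10.97, 13.7], 17.8 CPM ungrafted), was lower along with FST, FRZB and CHRD. Of the endoderm, hypoblast and yolk list, 4 of 23 matched members were measured, 1 higher, 2 lower and 1 neither (median log2 ratio -0.86). The lipid carrier APOA1 (5.98 CPM grafted, 37.1 CPM neural plate) and the transferrin gene TF (10.04 CPM grafted, 31.3 CPM neural plate) were lower and the retinol carrier RBP4 (5.44 CPM grafted, 1.902 CPM neural plate) was higher. Of the blood and endothelium list 1 member was measured, the globin gene HBE (5.06 CPM grafted, 1.95 CPM neural plate).

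Adhesion, matrix and guidance genes differed in both directions, to be read beside 7.32% higher and 16.1% lower of all measured genes. PCDH8, CDH6 and CDH7 were measured through their neural plate level only, and PCDH17 through its grafted level only. Counts of the adhesion list therefore describe its members and support nothing further. Of the cadherin and adhesion list, 21 of 31 matched members were measured, 2 higher, 8 lower and 11 neither (median log2 ratio -0.63). The protocadherin PCDH8 (0.613 CPM grafted, 31.1 CPM neural plate, 50.7-fold lower [25.7, 118]), the cadherins CDH6 (0.613 CPM grafted, 12.4 CPM neural plate), CDH7 (3.60 CPM grafted, 16.4 CPM neural plate) and CDH3 (607 CPM grafted, 1508 CPM neural plate) and the neural adhesion molecule CHL1 (5.44 CPM grafted, 25.98 CPM neural plate) were lower. CDH13 (86.4 CPM grafted, 15.1 CPM neural plate, 61.3 CPM ungrafted) and PCDH17 (19.1 CPM grafted, 4.83 CPM neural plate) were higher.

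Collagens of the extracellular matrix list differed in both directions, with 5 higher, 7 lower and 2 neither of 14 measured. Of the extracellular matrix list, 43 of 50 matched members were measured, 12 higher, 16 lower and 15 neither (median log2 ratio -0.46). The shares of all measured genes were 7.32% higher and 16.1% lower. Tenascin, TNC, stood at 204 CPM in grafted area opaca, against 5.06 CPM in neural plate (40.4-fold higher [36.8, 44.3]), with 93.2 CPM on the ungrafted side. The basement membrane collagen chains COL4A1 (312 CPM grafted, 50.4 CPM neural plate, 605 CPM ungrafted) and COL4A2 (322 CPM grafted, 50.9 CPM neural plate) and the vitronectin receptor chains ITGB3 (76.3 CPM grafted, 9.64 CPM neural plate) and ITGAV (51.2 CPM grafted, 14.7 CPM neural plate) were higher, as was COL12A1 (26.2 CPM grafted, 5.14 CPM neural plate). The fibrillar collagens COL1A2, COL2A1, COL5A1 (2.68 CPM grafted, 20.6 CPM neural plate), COL5A2 (6.74 CPM grafted, 30.5 CPM neural plate) and COL11A1 (6.28 CPM grafted, 26.8 CPM neural plate) were lower, as was the basement membrane collagen COL18A1 (266 CPM grafted, 737 CPM neural plate). The chains COL4A5 (469 CPM grafted, 556 CPM neural plate) and COL4A6 (227 CPM grafted, 276 CPM neural plate) passed neither rule. The integrin chains ITGA8 (1.46 CPM grafted, 6.33 CPM neural plate) and ITGB8 (0.919 CPM grafted, 7.25 CPM neural plate) were also lower. Both, like COL5A1, were measured through their neural plate level only.

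Genes of axon guidance and of neural tube closure follow, to be read beside 7.32% higher and 16.1% lower of all measured genes. UNC5C, UNC5A, NTN3, CELSR2 and SHROOM4 were measured through their neural plate level only, and PRICKLE1 through its grafted level only. Counts of both lists therefore describe the members and support nothing further. Of the axon guidance list, 39 of 45 matched members were measured, 5 higher, 14 lower and 20 neither (median log2 ratio -0.55). RGMA, which is known to repel axons, stood at 37.7 CPM in grafted area opaca, against 451 CPM in neural plate (11.96-fold lower [10.9, 13.1]), with 1.17 CPM on the ungrafted side. The netrin receptors UNC5C (0.843 CPM grafted, 10.3 CPM neural plate) and UNC5A (2.07 CPM grafted, 19.3 CPM neural plate), the netrin NTN3 (2.605 CPM grafted, 26.7 CPM neural plate), the semaphorin SEMA3G (5.52 CPM grafted, 46.1 CPM neural plate) and the semaphorin receptor NRP2 (14.4 CPM grafted, 97.9 CPM neural plate) were lower. The semaphorins SEMA6A (97.8 CPM grafted, 11.5 CPM neural plate, 12.9 CPM ungrafted) and SEMA5B (77.4 CPM grafted, 29.9 CPM neural plate), the receptors EPHA1 (178 CPM grafted, 27.5 CPM neural plate, 73.2 CPM ungrafted) and PLXNA2 (56.1 CPM grafted, 27.2 CPM neural plate) and the ligand SLIT3 (46.1 CPM grafted, 18.7 CPM neural plate) were higher. Of the neural tube closure list, 20 of 23 matched members were measured, 2 higher, 5 lower and 13 neither (median log2 ratio -0.41). The planar polarity genes CELSR2 (3.68 CPM grafted, 65.4 CPM neural plate), CELSR1 (48.6 CPM grafted, 217 CPM neural plate) and VANGL2 (32.1 CPM grafted, 119 CPM neural plate) were lower. The apical constriction gene SHROOM3 (20.8 CPM grafted, 64.8 CPM neural plate) and its relative SHROOM4 (4.67 CPM grafted, 12.2 CPM neural plate) were lower and PRICKLE1 (31.4 CPM grafted, 4.37 CPM neural plate) higher.

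**Figure D3:**
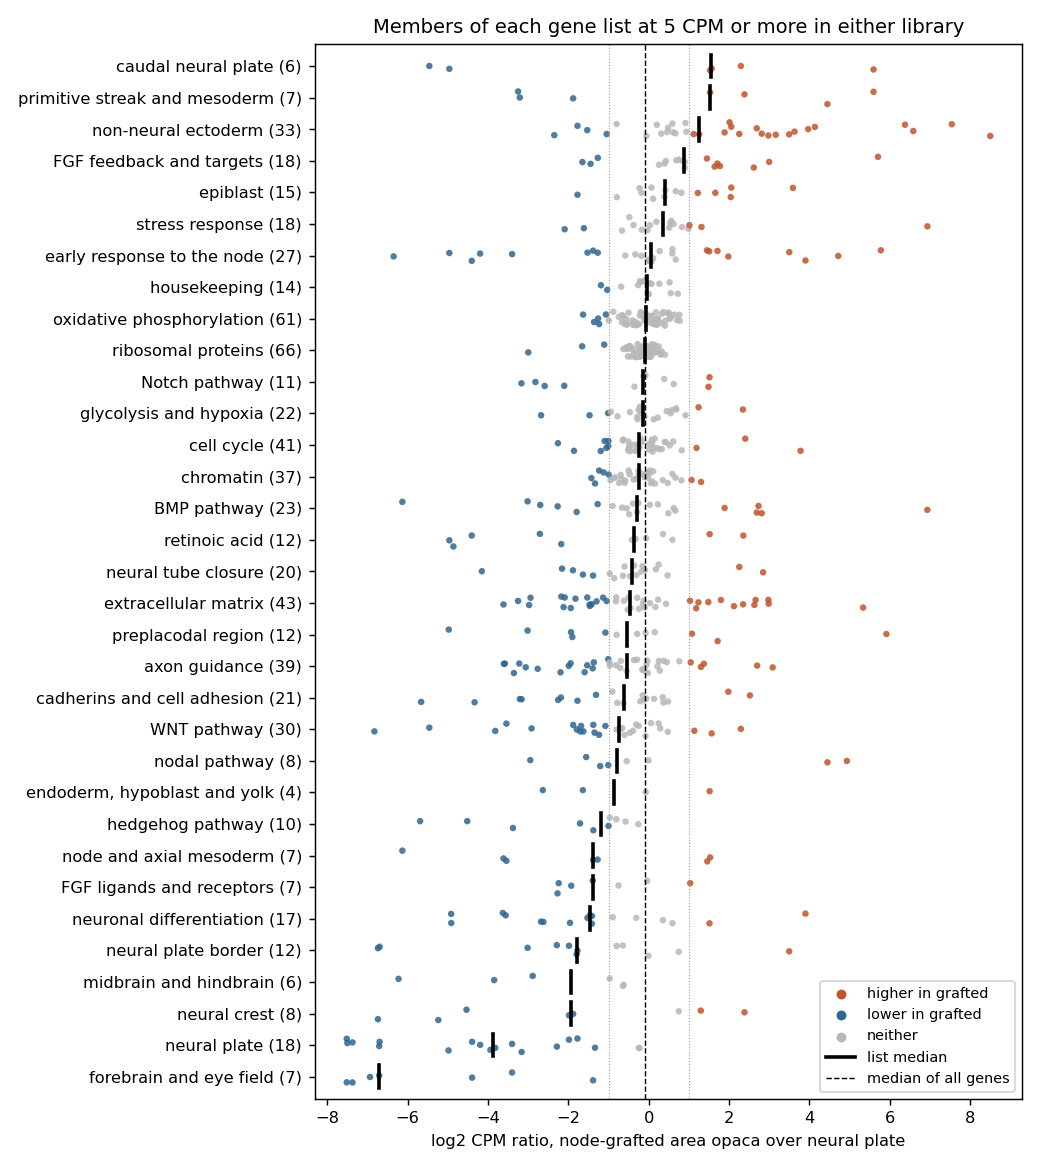
Log2 CPM ratio of node-grafted area opaca over neural plate (horizontal) for the measured members of the 33 lists with at least 4 of them (vertical, number of measured members in brackets), 1 point per gene, with list medians as bars, the median of all genes as a dashed line and ratios of 2 as dotted lines. The lists of forebrain and eye field (-6.71) and neural plate (-3.88) have the lowest medians, and the medians of ribosomal, respiratory chain and housekeeping genes (-0.10, -0.07 and -0.05) change sign with the scaling. The forebrain median is the ratio of RAX, which had 1 grafted count.

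Genes were then grouped by differences among the 6 libraries outside the pair, again by a ratio of 2 and 5 CPM, and looked up in the pair. In these and the later sets, a gene that reached 5 CPM in only 1 library of the pair was measured through that level. The filter itself thus feeds the shares, which describe the measured genes and support nothing further. Over all measured genes 7.32% were higher and 16.1% lower. Pre-streak epiblast exceeded all 3 HH6/7 ectoderm libraries at 104 genes, of which 70 were measured. Of these 70, 44 (62.9%) were higher in grafted area opaca than in neural plate and 1 was lower (median log2 ratio 1.45). Among the higher ones were ENS-1, CFC1 and TBX6. Of 684 genes that these HH6/7 libraries had above pre-streak epiblast, 620 were measured. Of these 620, 39 (6.29%) were higher in grafted area opaca, near the share of all genes. A further 184 (29.7%) were lower, and 397 passed neither rule. SOX9, SST and STRA6 were among the lower ones. The pre-streak and these HH6/7 libraries came from different laboratories, so stage and laboratory cannot be told apart in either set.

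Sets of position in the ectoderm were formed next and looked up in grafted area opaca against neural plate. They are to be read beside 7.32% higher and 16.1% lower of all measured genes, and under the same limit of the filter. Of 567 genes higher in anterior than in central pre-streak epiblast 528 were measured, 80 (15.2%) higher and 300 (56.8%) lower in grafted area opaca. Of 439 genes higher centrally 355 were measured, 160 (45.1%) higher and 35 (9.86%) lower. Of 529 genes that the anterior and the posterior preplacodal library had above non-neural ectoderm, 41 were higher and 318 (60.1%) lower in grafted area opaca. Of 668 genes higher in non-neural ectoderm 431 were measured, 216 (50.1%) higher and 34 lower. SLC5A1, SLC28A3, TGM4 and UPK1B belong to the sets of central pre-streak epiblast and of non-neural ectoderm, and ST8SIA2 to those of anterior pre-streak epiblast and of the preplacodal region.

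Sets formed with the ungrafted library concern tissue of the same embryos as the grafted one. Their counts are to be read beside the same shares of all measured genes, 7.32% higher and 16.1% lower, and under the same limit of the filter. Of 271 genes higher in ungrafted area opaca than in non-neural ectoderm, 216 were measured. Of these 216, 113 (52.3%) were higher and 4 lower in grafted area opaca than in neural plate. Of 1462 genes higher in non-neural ectoderm than in ungrafted area opaca 1224 were measured, 67 higher and 707 (57.8%) lower. These 2 libraries also differ in laboratory and depth. Of 1218 genes higher in ungrafted area opaca than in both pre-streak libraries 1043 were measured, 244 (23.4%) higher and 71 (6.81%) lower. Of 808 genes higher before the streak 756 were measured, 72 (9.52%) higher and 364 (48.1%) lower. As a description across genes, the grafted over neural plate log2 ratio had a Pearson r of 0.565 (Spearman 0.607, 9283 genes) with that of ungrafted area opaca over non-neural ectoderm. It was 0.395 (Spearman 0.455, 9325 genes) with that of ungrafted area opaca over pre-streak epiblast. The values were 0.326 (Spearman 0.192, 9684 genes) with pre-streak over HH6/7 ectoderm, -0.434 (Spearman -0.415, 9030 genes) with anterior over central pre-streak epiblast and -0.528 (Spearman -0.396, 9619 genes) with preplacodal over non-neural ectoderm. Genes are not independent replicates, and both area opaca libraries share low depth. In the correlation with pre-streak over HH6/7 ectoderm, stage and laboratory cannot be told apart.

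**Figure D4:**
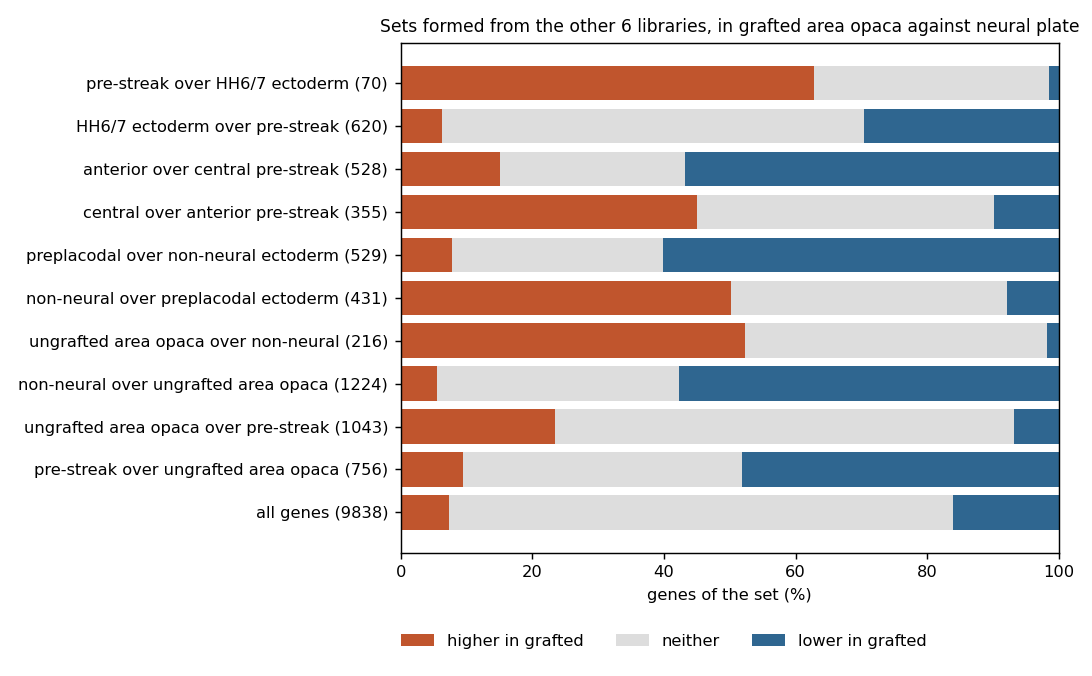
Share of each gene set (horizontal, percent) that was higher, neither or lower in node-grafted area opaca against neural plate, for sets formed from the other 6 libraries (vertical, number of measured genes in brackets) and for all genes in the lowest row. The sets of preplacodal over non-neural ectoderm and of anterior over central pre-streak epiblast have 60.1% and 56.8% of their genes lower, and the set of ungrafted area opaca over non-neural ectoderm has 52.3% higher.

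Last, the pair was set beside the distances to other tissues, with the counts of all libraries thinned to the smallest total. Grafted area opaca differed from neural plate at 23.5% of measured genes, 728 higher and 1584 lower, and ungrafted area opaca differed from the same neural plate library at 32.6%, 1217 higher and 2041 lower. The grafted library differed from the anterior pre-streak epiblast at 24.1%, from non-neural ectoderm at 23.4%, from the anterior and posterior preplacodal regions at 21.9% and 20.8%, from the central pre-streak epiblast at 21.0% and from ungrafted area opaca at 16.1%. The ungrafted library differed from non-neural ectoderm at 17.9% and from the anterior pre-streak epiblast at 35.0%. These comparisons share libraries, and differences between their shares have no replicate error and were not tested. Those with the preplacodal and non-neural libraries also cross laboratories. Both area opaca libraries stand apart from all others, neural plate included, by column name and by depth. They held 13053810 (grafted) and 14573663 (ungrafted) counts before thinning, against 58731944 to 138666339 in the others. What this split stands for is not given, and among the distances of the grafted library only that to ungrafted area opaca does not cross it.

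**Figure D5:**
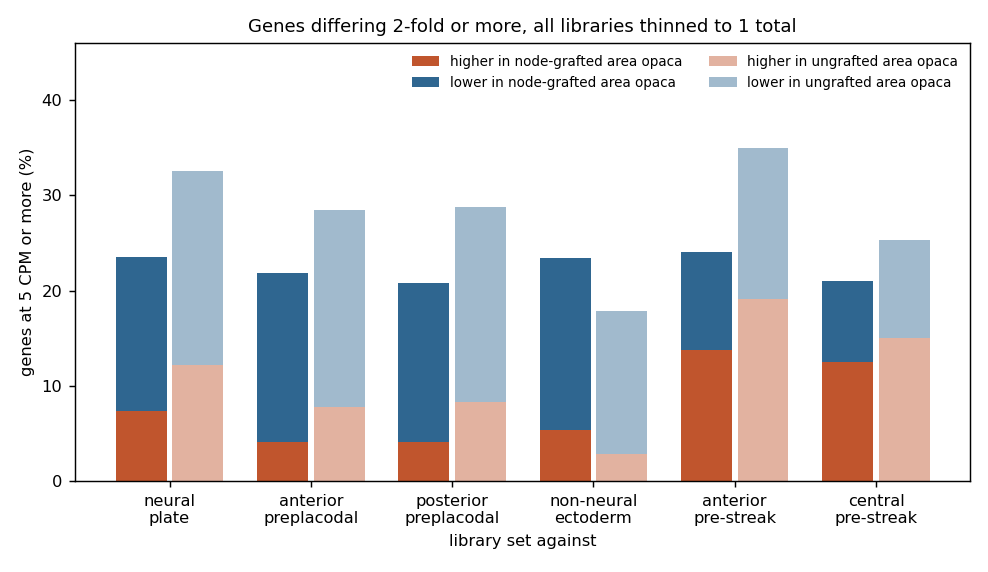
Percent of genes at 5 CPM or more that were at least 2-fold higher or lower in node-grafted (full colour) and in ungrafted (pale colour) area opaca than in each other library (horizontal), with all libraries thinned to 1 total. Against neural plate the bar of grafted area opaca reaches 23.5% and that of ungrafted area opaca 32.6%, and against non-neural ectoderm they reach 23.4% and 17.9%.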

How the data were processed

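The authors' deposited table gives unnormalised read counts per gene for 17329 rows (16701 Ensembl and 628 RefSeq identifiers) in 8 libraries, and a second deposited table gives FPKM values. TopHat2 and the galGal4 genome are named per the submitters' processing notes. The sources used here do not give versions, the annotation, the counting tool or how FPKM was made.

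CPM is a count divided by its column total, times 1000000. Ratios, exact Clopper-Pearson intervals (95%) and the floor of 3 counts came from Python 3.11.15 with scipy 1.17.1, numpy 2.4.6 and pandas 2.3.3. Figures were drawn with matplotlib 3.10.9. The procedure was tested on simulated data. Scaling alternatives used TMM factors of edgeR 4.0.16 and size factors of DESeq2 1.42.0 in R 4.3.3. No model was fitted, since each group has 1 library, and intervals cover counting error only, because reads without molecular identifiers are not independent molecules.

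Genes of 35 lists were matched by symbol, and by synonyms of the RefSeq gene table for assembly bGalGal1.mat.broiler.GRCg7b, with 898 of 1000 matched (21 by another name) and 102 not analysed here. Named genes are the 15 furthest in each direction ranked on the bound of the ratio's interval that lies nearest to 1 (genes with a symbol and at least 10 CPM), and list members in the order of their ratio, up to 6 in each direction per list. Further list members, and those that passed neither rule, were chosen after their values were seen. The members and lists were chosen with earlier results of these data known. FPKM log2 ratios had a Pearson r of 0.984 with CPM log2 ratios over 9643 Ensembl genes and of 0.585 over 179 RefSeq genes, and 6 grafted and 17 neural plate genes with 1000 counts or more are listed at 0 FPKM, so FPKM serves as an alternative for Ensembl rows only. Of 148 pairs of rows with like counts, 32 were called. Other alternatives were the minimum level, the ratio, thinning to the smallest total, and leaving out RefSeq or like rows. Some list members are counted in their lists but not reported here by name.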

Additional observations from a re-analysis of the deposited data

How the results depend on the processing

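Of 246 list members that were higher or lower, 0 passed the rule in the opposite direction under any alternative that gave them a value. A ratio that only crossed 1 was not counted. Another minimum, ratio or interval rule, or leaving out rows, does not change a gene's ratio, and other scalings shift it little. Under these such a turn could hardly occur, so the 0 says little about how stable the directions are. With TMM factors 232 passed the rule, with DESeq2 size factors 230, thinned to the smallest total 240, with the interval bound reaching 2 219, with a minimum of 20 CPM 187 and with a ratio of 4 127. On FPKM 205 (pseudocount 1) and 214 (pseudocount 0.1) of 236 did.

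Counts over all genes followed the thresholds by construction. Against 2301 genes in all, 720 higher and 1581 lower, a minimum of 20 CPM gave 1292, 458 and 834, no minimum 5707, 1514 and 4193, a ratio of 4 864, 284 and 580, and a ratio of 1.5 4029, 1465 and 2564. A minimum of 1 CPM gave 2384 lower and FPKM with a pseudocount of 1 gave 1028 lower. The median log2 ratio of all genes, -0.09, was 0.014 with TMM factors, 0.048 with DESeq2 size factors, and 0.018 and 0.019 on FPKM with pseudocounts of 1 and 0.1.

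At a minimum of 20 CPM the sets shrank. Members higher in grafted area opaca than in neural plate were then 25 (pre-streak over HH6/7), 88 (central over anterior pre-streak), 116 (non-neural over preplacodal), 64 (ungrafted over non-neural) and 147 (ungrafted over pre-streak), and members lower were 68 (HH6/7 over pre-streak), 110 (anterior over central), 170 (preplacodal over non-neural), 279 (non-neural over ungrafted) and 181 (pre-streak over ungrafted). TMM factors gave 178 members higher for ungrafted over non-neural ectoderm, against 113, and FPKM with a pseudocount of 1 gave a correlation of 0.221 with pre-streak over HH6/7, against 0.326.

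Among lists whose median lay at least 2-fold from neural plate, those of the caudal list (-4.96) and the neural crest list (0.75) turned at 20 CPM. Those of blood and endothelium (-0.89) and of primitive streak and mesoderm (-1.89) turned at 1 CPM. That of primitive streak and mesoderm (-0.19) also turned with totals that leave out ribosomal, mitochondrial and the 50 most abundant genes. Other members are then measured. Medians nearer to 0 changed sign as well, such as that of glycolysis and hypoxia (0.01) at 1 CPM. Those of ribosomal, respiratory chain and housekeeping genes did so with DESeq2 size factors (0.03, 0.06 and 0.08). No paired analysis was possible because each group has 1 library. At 13053810 grafted counts, a gene under 0.230 CPM there cannot be told from a gene with no count.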

Other observations

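Genes of the cell cycle and chromatin were called at shares near or below those of all measured genes, 7.32% higher and 16.1% lower, so their counts are no trait of the lists. Of the cell cycle list, 41 of 43 matched members were measured, 3 higher, 7 lower and 31 neither (median log2 ratio -0.24). The CDK inhibitor CIP1 stood at 20.2 CPM in grafted area opaca, against 1.47 CPM in neural plate (13.7-fold higher [11.2, 16.8]), with 10.4 CPM on the ungrafted side. CDK6 (36.7 CPM grafted, 6.94 CPM neural plate, 82.3 CPM ungrafted) and the cyclin CCND2 (34.9 CPM grafted, 15.3 CPM neural plate) were higher too. Lower were E2F2 (2.605 CPM grafted, 12.5 CPM neural plate) and E2F1 (18.8 CPM grafted, 37.7 CPM neural plate), which drive S-phase genes, the replication licensing genes CDC6 (14.9 CPM grafted, 54.3 CPM neural plate) and CDT1 (82.6 CPM grafted, 177 CPM neural plate), the CDK inhibitor CDKN1B (9.96 CPM grafted, 22.8 CPM neural plate) and the cyclin CCNB3 (142 CPM grafted, 294 CPM neural plate). Of the chromatin list, 37 of 43 matched members were measured, 2 higher, 5 lower and 30 neither (median log2 ratio -0.25). JARID2, a partner of Polycomb complex PRC2 (272 CPM grafted, 110.4 CPM neural plate), and CHDZ (266 CPM grafted, 127 CPM neural plate) were higher. The 5mC oxidase TET3 (17.8 CPM grafted, 48.05 CPM neural plate), the maintenance methyltransferase DNMT1 (47.9 CPM grafted, 121 CPM neural plate), CBX2 of the Polycomb group (31.5 CPM grafted, 74.2 CPM neural plate), the H3K36 methyltransferase SETD2 (604 CPM grafted, 1318 CPM neural plate) and the remodeller SMARCA4 (64.96 CPM grafted, 129.9 CPM neural plate) were lower.

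Genes of glycolysis and hypoxia and of the stress response are to be read beside 7.32% higher and 16.1% lower of all measured genes. ATF3 was measured through its grafted level only, and GADD45B through its neural plate level only. Of the glycolysis and hypoxia list, 22 of 25 matched members were measured, 2 higher, 3 lower and 17 neither (median log2 ratio -0.15). These counts lie near the shares of all genes and are no trait of the list. The glucose transporter SLC2A3 stood at 911 CPM in grafted area opaca, against 179.5 CPM in neural plate (5.07-fold higher [4.96, 5.19]), with 423 CPM on the ungrafted side, and SLC2A1 was higher as well (182 CPM grafted, 77.05 CPM neural plate, 496 CPM ungrafted). The carbonic anhydrase CA9 stood at 42.98 CPM in grafted area opaca, against 275 CPM in neural plate (6.41-fold lower [5.896, 6.98]), with 19.01 CPM on the ungrafted side, and the lactate exporter SLC16A3 (13.3 CPM grafted, 36.8 CPM neural plate) and ALDOC (579.7 CPM grafted, 1168 CPM neural plate) were lower too. The direction of this list's median turned to 0.01 with a minimum of 1 CPM. Of the stress response list, 18 of 21 matched members were measured, 3 higher, 2 lower and 13 neither (median log2 ratio 0.35). Besides ATF3, the chaperone HSPH1 (257 CPM grafted, 103 CPM neural plate, 168 CPM ungrafted) and the immediate early gene JUN (18.8 CPM grafted, 9.302 CPM neural plate, 11.4 CPM ungrafted) were higher, and GADD45B (3.14 CPM grafted, 13.4 CPM neural plate, 12.3 CPM ungrafted) and GADD45A (11.5 CPM grafted, 35.2 CPM neural plate, 7.96 CPM ungrafted) were lower. The part of dissection or culture in these values was not tested.

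Genes of ribosomes, the respiratory chain and housekeeping served as a level check. Of the ribosomal list, 66 of 68 matched members were measured, 0 higher, 3 lower and 63 neither (median log2 ratio -0.10), with RPS28 (29.6 CPM grafted, 236 CPM neural plate), RPS15 (192 CPM grafted, 607 CPM neural plate) and RPS26 (313 CPM grafted, 676 CPM neural plate) lower. Of the respiratory chain list, 61 of 61 matched members were measured, 0 higher, 5 lower and 56 neither (median log2 ratio -0.07), with NDUFS5 (23.8 CPM grafted, 73.96 CPM neural plate), NDUFV1 (69.6 CPM grafted, 179 CPM neural plate), NDUFS8 (48.3 CPM grafted, 116 CPM neural plate), NDUFA2 (15.02 CPM grafted, 35.3 CPM neural plate) and NDUFV3 (5.899 CPM grafted, 12.4 CPM neural plate) lower. Of the housekeeping list, 14 of 15 matched members were measured, 0 higher, 2 lower and 12 neither (median log2 ratio -0.05), with TFRC (86.9 CPM grafted, 198 CPM neural plate) and PPIA (1158 CPM grafted, 2371 CPM neural plate) lower. With DESeq2 size factors the medians of these 3 lists were 0.03, 0.06 and 0.08, so that they have no direction here.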
